A study of Mus musculus with 4 samples.

Results

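The genes described here belong to families of the extracellular matrix and of cell adhesion. They were chosen from the table the authors deposited by the start of the gene symbol: collagens, laminins, integrins, matrix metalloproteinases, Adam proteases and Timp inhibitors, the urokinase genes, cadherins, protocadherins, claudins, galectins, fibulins, thrombospondins, spondins, mucins, Ceacam genes and keratins. The pattern matched 52 of the 1593 listed genes, and 4 of these, Itgad, Itgal, Itgb2 and Lamb3, were left out because their KEGG pathways named cancer, Rap1, actin cytoskeleton or phospholipase D signalling. This left 48 genes and no integrin, laminin, metalloproteinase of the Mmp group, spondin or urokinase gene itself. RNA was sequenced from 46C, a clonal line of mouse embryonic stem cells with a Sox1-GFP reporter. Cells of both groups were kept in serum with 1 µM PD0325901, a MEK inhibitor, for 24 h. In the PD group this was the whole treatment, and the PC group received CID755673, known as a protein kinase D inhibitor, in addition. The labels used here state no dose of CID755673, and each group had 2 libraries from this single line. The comparison asks which genes change with CID755673 when MEK is inhibited in both groups.

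The extracellular matrix is a meshwork of collagens and glycoproteins that cells secrete, bind through surface receptors and cut with proteases. Cadherins join neighbouring cells through calcium-dependent contacts, claudins seal epithelial sheets, and keratins are the intermediate filaments of epithelial cells. Embryonic stem cells grow as tight colonies, and cells leaving pluripotency are known to change their cadherins and their matrix.

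The authors' table lists only genes whose absolute log2 change between these same libraries was at least 1 with a p of at most 0.0498, so all 48 genes had been selected for a difference. Their directions and the fact of a difference are therefore a description. Values below are normalized reads, meaning reads divided by the size factor of the library, and a mean ± SD covers both libraries of its group (n = 2). Changes are PC minus PD in log2(normalized reads + 1), a scale that understates changes of genes with few reads. The test was limma over the whole table with Benjamini-Hochberg adjustment over 31432 genes, the inferred number that the authors tested. A gene was called at an adjusted p under 0.05. Nothing in the labels ties libraries to separate cultures, and p-values therefore measure only a spread between libraries that may be technical. In RNA from whole cultures, fewer cells of a type and less RNA per cell cannot be told apart.

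Most of the 48 listed matrix and adhesion genes had less RNA with CID755673, and genes of these families outside the authors' table are not analysed here. Of the 48 genes, 39 had lower values in PC and 9 had higher values, with a median log2 change of -1.53. Among all 1593 listed genes 980 were lower (61.5%), with a median of -1.17. limma with Benjamini-Hochberg adjustment called 14 of the 48, or 29.2%, against 31.1% of all listed genes, so the share called was near the background. The 3 genes that rose were Lgals1, Adam11 and Cdh22, where 11.2% of all listed genes were called higher. The 11 that fell were Cdh3, Cdh9, Col6a4, Col5a2, Fbln2, Krt42, Krt79, Krt13, Plaur, Cldn2 and Pcdhac1, where 19.8% of all listed genes were called lower. Calls followed the number of reads: of the 18 genes with a mean of at least 100 normalized reads 11 were called (61.1%), and of the 30 below that 3 were called (10%). For all listed genes these shares were 62.0% and 12.6%. By the false discovery rate in the authors' deposited table, taken at 0.05, 36 of the 48 passed (6 of them higher), against 70.2% of all listed genes. In 47 of the 48 both PC libraries lay on the same side of both PD libraries, which held for 99.7% of listed genes, and the exception was Pcdhga10. Most calls were lost when 1 library was left out. Such fits keep 1 residual degree of freedom and leave a single sample in 1 group. Their calls therefore cannot show whether a change rests on a single library. The median log2 change of the 48 genes was -1.34 without PD replicate 1 and -1.46 without PD replicate 2. It was -1.41 without PC replicate 1 and -1.37 without PC replicate 2. Over all listed genes these medians were -1.17, -1.14, -1.17 and -1.08.

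**Figure D1:**
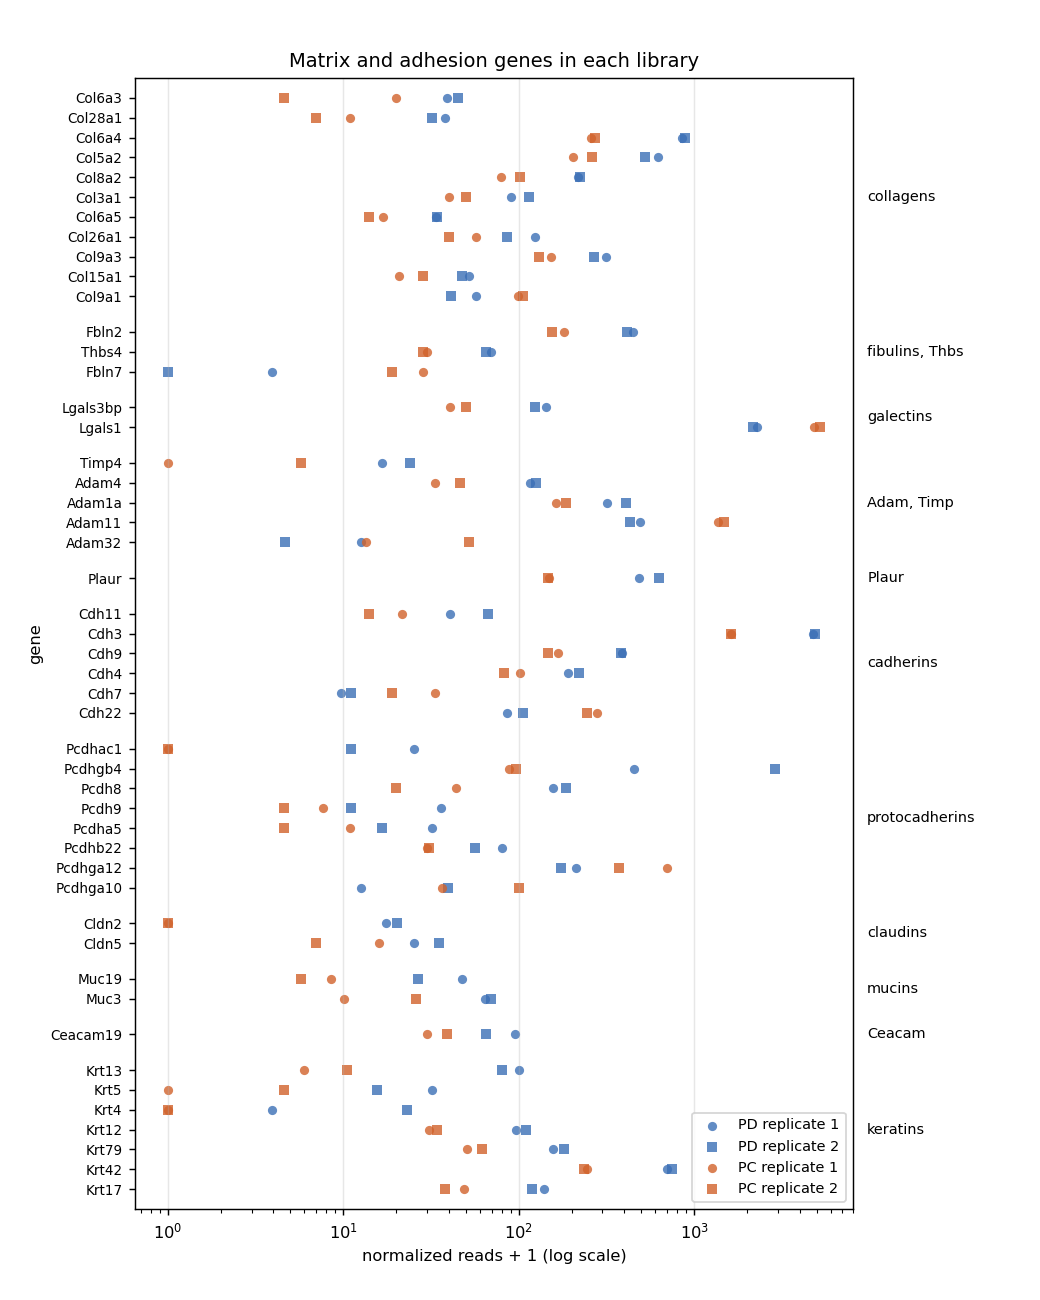
Normalized reads + 1 (log axis) of the 48 matrix and adhesion genes, arranged by family, with 1 point per library; blue is PD, orange is PC, circles are replicate 1 and squares replicate 2. The PC points lie to the left of the PD points for 39 genes and to the right for Lgals1, Adam11, Cdh22 and others with higher PC values, and the PD squares and circles of Pcdhgb4 lie far apart.

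Promoter windows are shown for 5 called genes of different families that have an entry in the RefSeq table: the cadherin gene Cdh22, which rose, and Col6a4, Krt42, Plaur and Cldn2, which fell. Of the 48 genes 29 matched an entry by symbol, with 34 start sites, in build GRCm38.p6, which is not the mm9 build named in the submitters' processing notes. Each window is the 250 bases before the annotated start, written 5′ to 3′ on the strand of the gene. The windows are chr2:165234738-165234987 (minus strand), chr9:106096692-106096941 (minus strand), chr11:100269952-100270201 (minus strand), chr7:24462233-24462482 (plus strand) and chrX:139800558-139800807 (plus strand). Capitals mark matches on either strand to 4 motifs. The letters searched were TATAAA for the site of the TATA-binding protein, TGANTCA for the AP-1 site, GGGCGG for the GC box of Sp1 factors, and CAGGTG for the E-box bound by Snail.
Cdh22: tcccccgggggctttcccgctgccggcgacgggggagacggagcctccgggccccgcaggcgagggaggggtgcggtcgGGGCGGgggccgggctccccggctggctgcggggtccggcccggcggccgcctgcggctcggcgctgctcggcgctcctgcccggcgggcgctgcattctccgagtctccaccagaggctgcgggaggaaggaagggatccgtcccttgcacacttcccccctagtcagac
Col6a4: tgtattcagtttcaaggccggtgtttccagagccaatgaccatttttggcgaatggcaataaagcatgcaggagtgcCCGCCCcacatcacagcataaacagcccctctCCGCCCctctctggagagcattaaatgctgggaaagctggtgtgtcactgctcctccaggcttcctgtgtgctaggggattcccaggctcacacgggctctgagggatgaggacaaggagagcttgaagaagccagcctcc
Krt42: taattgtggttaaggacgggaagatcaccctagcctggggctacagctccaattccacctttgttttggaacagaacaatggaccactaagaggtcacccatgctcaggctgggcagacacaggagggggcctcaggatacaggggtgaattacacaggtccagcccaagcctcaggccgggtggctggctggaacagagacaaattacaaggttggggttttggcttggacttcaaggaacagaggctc
Plaur: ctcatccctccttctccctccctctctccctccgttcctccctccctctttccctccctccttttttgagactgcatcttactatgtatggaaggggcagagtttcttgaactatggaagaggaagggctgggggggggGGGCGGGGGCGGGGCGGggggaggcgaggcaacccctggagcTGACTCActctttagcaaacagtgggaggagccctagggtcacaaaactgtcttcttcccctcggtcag
Cldn2: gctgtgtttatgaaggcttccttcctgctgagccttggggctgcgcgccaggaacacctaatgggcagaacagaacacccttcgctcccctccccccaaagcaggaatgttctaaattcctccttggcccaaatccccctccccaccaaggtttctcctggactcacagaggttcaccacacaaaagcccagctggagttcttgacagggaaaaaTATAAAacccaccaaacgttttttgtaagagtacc

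The windows that are shown differ in their matches. The Plaur window holds an AP-1 match that begins 69 bases before the start, and GC boxes that begin 111, 105 and 100 bases before it, of which the last pair share a base. The Cldn2 window has a TATA box that begins 35 bases before the start, and the Krt42 window has none of the 4 motifs. Over all 34 windows of these genes, 4 held a TATA box (11.8%), against 12.4% of the 32851 windows in the table. An AP-1 match was in 3 of them (8.82%), from Krt13 and Plaur, against 6.75% of all windows. A GC box was in 8 (23.5%) against 32.7%, and a Snail E-box in 5 (14.7%) against 17.2%. Start sites of the same gene were counted as separate windows, as for Krt13 among the AP-1 matches and Cdh7 among the E-box matches. These matches describe letters and not binding.

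Among the structural genes of the matrix, 2 collagen genes fell. Col6a4, a chain of the beaded collagen VI filaments, had 855 and 881 normalized reads in PD and 257 and 271 in PC. The groups were far apart and the libraries of each group close together. Its mean went from 868 ± 18.0 to 264 ± 10.2, a log2 change of -1.71 (SE 0.11, Benjamini-Hochberg adjusted p of 0.012 from limma). Col5a2, a chain of collagen V that sets the width of collagen fibrils, had 624 and 524 in PD and 202 and 261 in PC. Both PC libraries were below both PD libraries, and the change was -1.31 (SE 0.18, Benjamini-Hochberg adjusted p of 0.043 from limma).

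The other 9 collagen genes did not pass, and 8 of them had lower PC values. Col8a2, of a collagen that forms hexagonal networks, was at 219 ± 4.57 in PD, with 89.5 ± 16.4 in PC (Benjamini-Hochberg adjusted p of 0.060 from limma). Col3a1, the fibrillar collagen of soft tissue, was at 101 ± 17.3 and 43.9 ± 6.95. It is the next protein-coding gene to Col5a2 on chromosome 1 in GENCODE M21, and Col6a5 is the next to Col6a4 on chromosome 9. Of the other collagen VI chains, Col6a3 had 37.8 and 44.0 normalized reads in PD and 19.1 and 3.57 in PC, and Col6a5 at 33.0 ± 0.017 and 14.4 ± 1.88. The 2 listed chains of collagen IX, a cartilage collagen bound to fibril surfaces, had values in opposite directions. Col9a1 averaged 48.3 ± 11.3 in PD and 102 ± 4.31 in PC, and Col9a3 at 291 ± 34.3 and 141 ± 15.5, and this difference between them was not tested. Col15a1 of basement membrane zones was at 49.1 ± 3.29 and 23.6 ± 5.29, Col26a1 at 103 ± 26.8 and 47.8 ± 12.1, and Col28a1 had 36.8 and 31.2 in PD and 9.94 and 5.95 in PC. Summed over the 11 collagen genes, the libraries had 2437 and 2288 normalized reads in PD and 947 and 1005 in PC. The annotation holds 45 protein-coding collagen genes, and those outside the table are not analysed here.

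Of the matrix glycoproteins, Fbln2, a fibulin of basement membranes and elastic fibres, had 444 and 411 normalized reads in PD and 179 and 155 in PC. The libraries of each group were close and the groups did not overlap. It fell by 1.35 on the log2 scale (SE 0.14, Benjamini-Hochberg adjusted p of 0.020 from limma). Fbln7, a fibulin that takes part in cell adhesion, had 3 and 0 reads in PD against 33 and 15 in PC, without passing (Benjamini-Hochberg adjusted p of 0.17 from limma). Its PD values are too few for a fold. Thbs4, a thrombospondin of tendon and muscle matrix, went from 66.5 ± 3.32 in PD to 28.2 ± 1.16 in PC without passing (Benjamini-Hochberg adjusted p of 0.22 from limma).

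The galectins are lectins that bind galactose-bearing sugars on surface and matrix proteins. Lgals1, galectin-1, had 2282 and 2149 normalized reads in PD and 4789 and 5224 in PC. Both PC libraries were far above both PD libraries. The ratio of the means was 2.26, with a log2 change of 1.18 (SE 0.09, Benjamini-Hochberg adjusted p of 0.014 from limma). Lgals3bp, a secreted glycoprotein that galectins bind, had 143 and 123 in PD and 39.8 and 48.8 in PC. Its values thus lay in the other direction, a change of -1.57 that did not pass (Benjamini-Hochberg adjusted p of 0.060 from limma).

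Among genes that act on the matrix, Plaur encodes the receptor that holds urokinase at the cell surface, where it activates plasminogen. Its libraries had 485 and 626 normalized reads in PD and 148 and 145 in PC. The PD libraries differed more between themselves than the PC libraries, and both were far above them. Plaur fell by 1.90 on the log2 scale (SE 0.17, Benjamini-Hochberg adjusted p of 0.014 from limma). Adam11, a member of the Adam family that lacks protease activity and is known from neurons, had 492 and 427 in PD and 1369 and 1476 in PC. It had the largest change among the 3 genes that rose, 1.63 (SE 0.12, Benjamini-Hochberg adjusted p of 0.014 from limma), a ratio of means of 3.10. The Adam genes known from testis did not pass. Adam4 had means of 119.5 ± 7.23 in PD and 38.8 ± 9.12 in PC, and Adam1a at 362 ± 60.9 and 173 ± 16.1. Adam32 was at 7.65 ± 5.64 and 31.8 ± 27.4, with 12 and 4 reads in PD and 15 and 43 in PC, so that its groups were parted by little. For Adam1a, 63.7% of the exon length is shared with other genes on the same strand, among them Mapkapk5, so its reads may come from either gene. Timp4, an inhibitor of metalloproteinases, had 16 and 25 reads in PD and 0 and 4 in PC and did not pass (Benjamini-Hochberg adjusted p of 0.43 from limma).

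Among the 48 genes, the called gene with the most reads that fell was a cadherin. Cdh3, P-cadherin of the placenta and of basal epithelia, had 4752 and 4889 normalized reads in PD and 1625 and 1613 in PC. Libraries of a group were nearly equal, and the groups differed by a ratio of means of 2.98. The log2 change was -1.57 (SE 0.08, Benjamini-Hochberg adjusted p of 0.012 from limma), the smallest standard error of the 48 genes. Cdh9, a type II cadherin of the nervous system, had 388 and 379 in PD and 166 and 145 in PC. Both PC libraries were under both PD libraries, and it fell by 1.30 (SE 0.14, Benjamini-Hochberg adjusted p of 0.021 from limma). Cdh22, also a type II cadherin, had 84.4 and 104 in PD and 278 and 245 in PC. It was higher in both PC libraries and rose by 1.47 (SE 0.18, Benjamini-Hochberg adjusted p of 0.035 from limma). The other 3 did not pass: Cdh4, R-cadherin, averaged 206 ± 21.1 in PD and 91.0 ± 14.3 in PC, Cdh11, a cadherin of mesenchyme, at 52.9 ± 18.5 and 16.9 ± 5.39, and Cdh7 at 9.40 ± 0.96 and 25.1 ± 10.2. E-cadherin (Cdh1) and N-cadherin (Cdh2) are not analysed here.

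Several protocadherins differed widely between libraries of a group. The median limma standard error of the family was 0.56, against 0.32 over the 48 genes. Pcdhgb4, of the gamma cluster, had 449.9 normalized reads in PD replicate 1, 2879.6 in PD replicate 2, 87.0 in PC replicate 1 and 95.2 in PC replicate 2. The PD libraries differed 6.4-fold while the PC libraries were nearly equal, and it did not pass (Benjamini-Hochberg adjusted p of 0.24 from limma). Against PD replicate 1 alone the PC libraries were still lower. Pcdhga12 had 210.4 and 172 in PD and 703 and 372 in PC, and Pcdhga10 had 11.6 and 38.5 in PD and 35.6 and 98.7 in PC. The 2 gamma-A genes thus had higher PC means than PD means, the direction opposite to Pcdhgb4, and in Pcdhga10 the groups overlapped. Neither passed, and the difference in direction within the cluster was not tested. Pcdhac1 of the alpha cluster had 25 and 11 reads in PD and 0 in both PC libraries. It fell, at least 5.67-fold lower against a floor of 3 reads per library, which covers counting error only, and at least 3.33-fold lower without PD replicate 1 (Benjamini-Hochberg adjusted p of 0.032 from limma). Pcdha5 was at 23.3 ± 10.9 and 6.76 ± 4.51, and Pcdhb22 at 67.3 ± 17.3 and 29.4 ± 0.53. Each clustered gene has its own promoter and first exon, and genes of the alpha or gamma cluster share their last exons. For the 5 alpha and gamma genes 31.8% to 54.9% of the exon length overlaps other genes on the same strand, so the authors' counting could split their reads and single values are uncertain. A further 55.2% of Pcdhga10 and 6.33% of Pcdhga12 overlaps a gene on the other strand. The strand setting of the counting is not given. Outside the clusters, Pcdh8, a protocadherin of embryonic mesoderm and synapses, had 155 and 186 in PD and 43.1 and 19.0 in PC. Its groups were well apart, but the PC libraries differed and it did not pass (Benjamini-Hochberg adjusted p of 0.087 from limma). Pcdh9 was at 22.5 ± 17.6 and 5.10 ± 2.16.

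**Figure D2:**
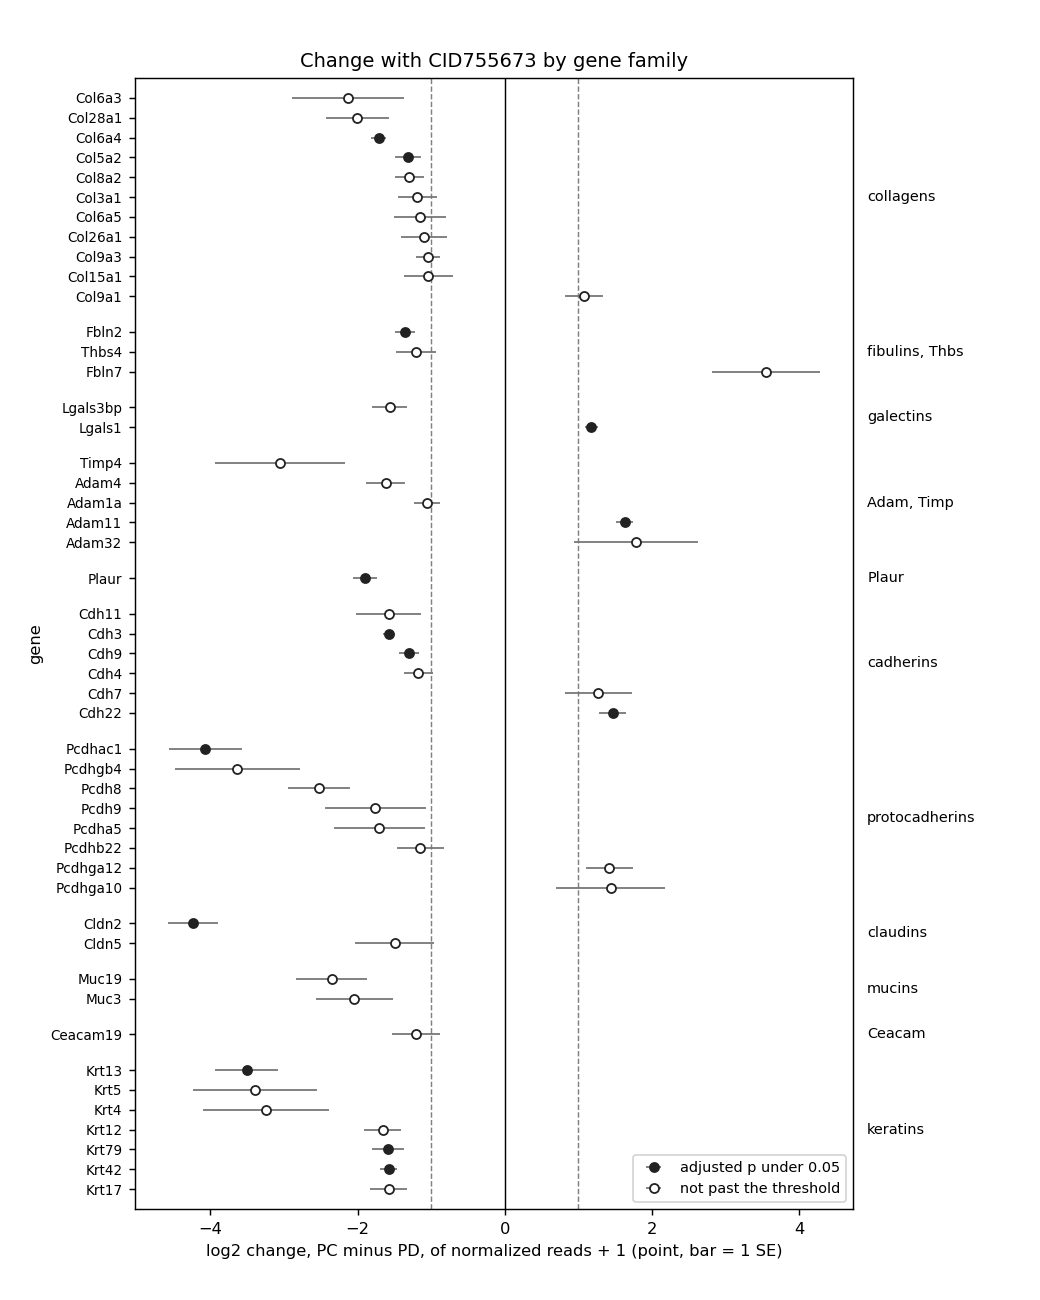
Log2 change (PC minus PD, log2 of normalized reads + 1) of the 48 genes by family; points are limma estimates with bars of 1 SE, filled where the adjusted p was under 0.05, and dashed lines mark the limit of 1 by which the authors' table was selected. All 7 keratin genes and 10 of 11 collagen genes lie to the left of 0, while cadherins and protocadherins lie on both sides.

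Keratins pair as type I and type II chains, and all 7 that were listed had lower values in PC, of which 3 fell. Krt42, a type I keratin, had 694 and 741 normalized reads in PD and 244 and 236 in PC. The groups were far apart, and it fell by 1.58 on the log2 scale (SE 0.11, Benjamini-Hochberg adjusted p of 0.013 from limma). Krt79, a keratin of the hair canal, had 155 and 179.6 in PD and 49.7 and 60.7 in PC and fell by 1.59 (SE 0.21, Benjamini-Hochberg adjusted p of 0.043 from limma). Krt13, a type I keratin of the lining of mouth and oesophagus, had 102 and 87 reads in PD and 6 and 8 in PC. This was the largest change of a called gene with reads in every library, -3.50 (SE 0.43, Benjamini-Hochberg adjusted p of 0.032 from limma). Krt4, its type II partner in that tissue, had 3 and 24 reads in PD and 0 in both PC libraries, and did not pass. The PD libraries were far apart and PD replicate 1 was at the floor of 3 reads, so no fold is given. Krt5 of basal epidermis had 32 and 16 reads in PD and 0 and 3 in PC. Krt12, the keratin of the cornea, was at 102 ± 9.92 and 31.6 ± 2.46, and Krt17, a keratin of hair follicles and wounded skin, at 128 ± 15.1 and 42.5 ± 7.90 (limma p of 0.062 and 0.073 after Benjamini-Hochberg adjustment). For Krt12, 54.4% of the exon length overlaps a gene on the other strand, and the strand setting of the counting is not given. The 7 genes lie on chromosomes 11 and 15, where Krt42 and Krt17, and Krt4 and Krt79, are next to each other. Summed over the 7 genes, the libraries had 1216 and 1264 normalized reads in PD and 376 and 379 in PC. The sum was thus close between libraries of a group. Most of it was Krt42, with 694 and 741 in PD and 244 and 236 in PC, and single genes such as Krt4 and Krt5 were less close.

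Of the apical and junction genes, Cldn2, a claudin that forms pores for cations, had 17 and 21 reads in PD and 0 in both PC libraries. It was at least 5.90-fold lower against the floor and was called (Benjamini-Hochberg adjusted p of 0.014 from limma). Cldn5, the claudin of endothelium, had 24.2 and 33.9 normalized reads in PD against 14.9 and 5.95 in PC, without passing. The mucins, large glycoproteins of epithelial surfaces, did not pass either: Muc3 had 65 and 75 reads in PD and 11 and 21 in PC, and Muc19 had 48 and 28 in PD and 9 and 4 in PC. Ceacam19, of a family of immunoglobulin-like adhesion proteins, had 94.1 and 64.2 normalized reads in PD and 29.0 and 38.1 in PC. All 5 of these genes had lower PC values in both libraries. In 99.7% of all listed genes the groups did not overlap, and 61.5% were lower in PC.

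Compared per kb of exon, which sets aside gene length, the order of the levels was led by few genes. In PD, Lgals1 had 2453 normalized reads per kb of exon, Cdh3 1099.6, Krt42 407, Pcdhgb4 286 and Plaur 212. The place of Pcdhgb4 rests on PD replicate 2, and its PD replicate 1 value was below that of Krt42 even before division by its greater length. In PC, Lgals1 led with 5544, ahead of Cdh3 with 369, Adam11 with 251 and Krt42 with 136. Adam11 was the 9th in PD with 81.0, and Krt13 was the 14th in PD with 49.1 and the 34th in PC with 3.98. Cdh3 and Lgals1 together held 41.0% to 47.7% of the normalized reads of the 48 genes in the PD libraries and 56.7% to 59.1% in the PC libraries. Without these 2 genes the sum was 7701 and 10118 in PD and 4894 and 4738 in PC. Pcdhgb4, with 449.9 normalized reads in PD replicate 1 and 2879.6 in PD replicate 2, enters these sums and shares. When only Pcdhgb4 was left out, the sum of the other 47 genes was 14285 and 14276 in PD and 11221 and 11480 in PC.

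**Figure D3:**
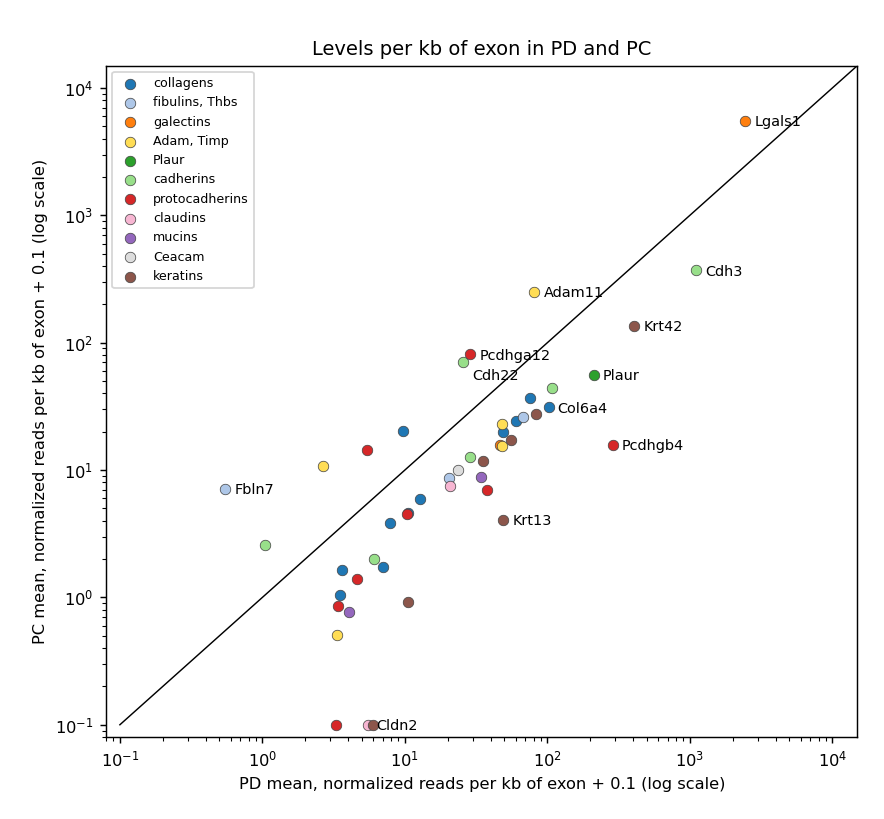
Mean normalized reads per kb of exon + 0.1 in PD (x, log axis) and PC (y, log axis) for each of the 48 genes, coloured by family; the line marks equal levels. Lgals1 and Adam11 lie above the line, Cdh3, Krt42 and Plaur below it, and the 3 genes at the bottom edge had 0 reads in both PC libraries.

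**Figure D4:**
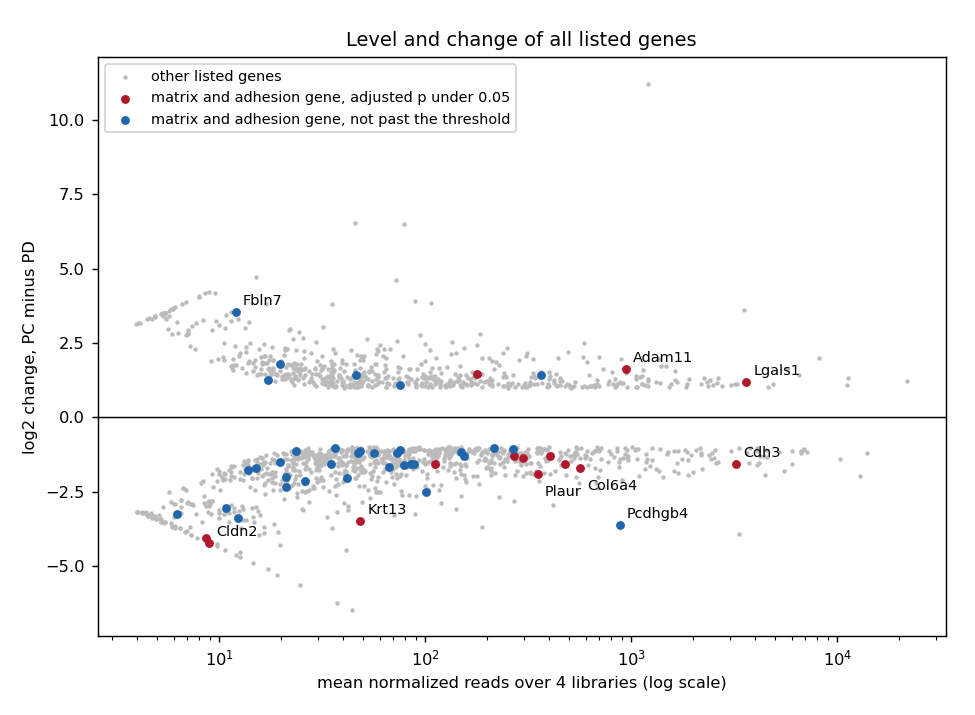
Log2 change (PC minus PD) against mean normalized reads over the 4 libraries (log axis) for all 1593 listed genes; grey points are other genes, red points matrix and adhesion genes with an adjusted p under 0.05 and blue points those that did not pass. The empty band around 0 is the selection of the table, and the red points lie mostly at high levels, apart from Krt13, Cldn2 and Pcdhac1.

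Other genes of matrix and adhesion were taken from 7 lists outside the symbol pattern, with 186 genes in all. Of these 19 were in the table, 6 with higher and 13 with lower PC values, and limma with Benjamini-Hochberg adjustment called 3 higher and 6 lower. Of all listed genes 61.5% had lower values, 11.2% were called higher and 19.8% lower. Among matrix proteins (7 of 37 listed), the microfibril gene Fbn2 rose from 472 ± 10.5 to 1090.2 ± 63.2 normalized reads and the cartilage matrix gene Matn1 fell from 1404 ± 98.6 to 520.4 ± 63.1. Of collagen processing genes 1 of 20 was listed, the protease gene Tll1, which rose from 609 ± 6.37 to 1488 ± 166. Of 24 focal adhesion genes 3 were listed, and 2 fell: the kinase gene Ptk2b from 1867 ± 112 to 601 ± 22.6, and Fermt1, a kindlin that activates integrins, from 408 ± 26.4 to 149.8 ± 18.6. The junction genes, 2 of 29, moved apart: the plaque gene Jup fell from 9256 ± 1058 to 4015 ± 109.8, and the desmosomal cadherin gene Dsc2 rose from 273.5 ± 12.4 to 588 ± 4.42. Of 48 adhesion receptor genes 4 were listed, and Mcam fell from 5546 ± 293 to 1918 ± 138. Of 18 regulators of the epithelial-mesenchymal transition 2 were listed, and Grhl2, which maintains epithelial genes, fell from 1732 ± 44.9 to 649 ± 22.3. Of 10 other plasminogen system genes 0 were listed, so they are not analysed here.

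The 4 genes left out by their pathways also had lower PC values. Itgb2, the beta chain of leukocyte integrins, averaged 198 ± 38.1 in PD and 35.3 ± 8.94 in PC, its partner Itgal at 383 ± 8.70 and 167 ± 2.58, and the epithelial laminin chain gene Lamb3 at 223 ± 13.1 and 99.2 ± 4.39. These 3 were called, and Itgad, at 16.1 ± 1.97 and 1.78 ± 2.52, was not. With them 43 of 52 genes were lower. Among all listed genes 61.5% were lower and 19.8% were called lower, and these 4 genes too had been selected for a difference.

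In the deposited annotation 28 of the 48 genes carried the term cell adhesion, against 85 of all 1593 listed genes, and 17 the term calcium ion binding, against 78. Col6a3, Col6a4, Col6a5, Col9a1, Col9a3 and Thbs4 carried the KEGG pathways for ECM-receptor interaction and focal adhesion. These counts follow in large part from the families chosen.

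The 48 genes together drew 9730 reads in PC replicate 2, the fewest, and 18719 in PD replicate 2, the most. The median over the genes was 94.5 and 89.5 reads for PD, and 41 and 32.5 for PC. In 15 of the 48 at least 1 library had under 10 reads. Of 14 stem cell markers 3 were listed, Utf1, Lin28a and Dnmt3l, and all 3 were called lower in PC. Of all listed genes 19.8% were called lower. The sum of these 3 markers was 23343 and 24382 normalized reads in PD and 8211 and 7975 in PC. Markers listed only for a difference cannot check the stem cell label. Of the listed markers of other cell types, most did not pass, and all had been selected for a difference. Those called were Tek, Itgb2, Itgal and Myh7, which fell, and Gata6, which rose. Summed levels in PD and PC were 3422 to 3602 and 1348 to 1524 for endothelium (4 of 10 listed, with Tek at 3279 and 3446 in PD and 1462 and 1315 in PC and Cldn5 among the others), 548 to 614 and 198 to 207 for blood cells (2 of 10, Itgb2 and Itgal), 626 to 812 and 294 to 304 for muscle (3 of 10), 380.1 to 384 and 133 to 195 for trophoblast (1 of 10), 89.2 to 114 and 38.9 to 48.8 for fibroblasts (1 of 10, Col3a1), and 14.7 to 31.0 and 0 to 3.57 for surface epithelium (1 of 10, Krt5). For endoderm (2 of 10) the sums were 209.9 to 221 in PD and 466 to 512 in PC, and of 6 neural progenitor markers 0 were listed. Krt5 was at 0 reads in PC replicate 1, and no other of these markers was at 0 in any library. The part of such cells in the results above was not tested.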

How the data were processed

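RNA of 4 samples of 46C cells, 2 per group, was sequenced. The authors deposited 1 table with a log2 value per gene and library, group means, a log2 fold change, and p-values and false discovery rates of their own test, per the file headers. Bowtie 0.12.2 and mm9 appear, without a role, in the submitters' processing notes. How reads were counted, with which annotation and strand setting, and the authors' test are unstated in these sources. After the log2 was undone and 1 subtracted, 100% of values in each library were whole multiples of a step, within 0.001 reads. The values are thus log2(reads/size factor + 1), with size factors 1.03 and 1.09 for PD and 1.21 and 0.841 for PC. Reads on listed genes were 433684 to 683777, and the depth of the libraries is unknown. Replicate libraries differed beyond counting noise (chi-square per degree of freedom 7.12 over 1514 genes in PD and 6.81 over 1437 in PC).

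limma 3.58.1 (R 4.3.3, trended prior, 2 residual degrees of freedom, no block) was fitted to all 1593 genes with a mean of at least 1 normalized read, which removed none. The number of genes the authors tested, 31432, was inferred from the ratio of their false discovery rate to their p-value. It was the number that most often made these ratios give whole ranks, which held for 88.3% of listed genes. Adjustment took unlisted genes as having larger p-values, and the spread was estimated on genes selected for a small p. Exon lengths and overlaps came from GENCODE M21. Every gene was named, with full values for called genes, the most abundant of each family, the 5 largest changes each way and genes at 0 in a group. Genes and lists were chosen with earlier results of these data known.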

Additional observations from a re-analysis of the deposited data

How the results depend on the processing

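No result changed direction under any alternative run, but selection for an absolute log2 change of at least 1 in these libraries largely fixed this beforehand. The number of matrix and adhesion genes called by limma, 14 of 48, was 22 with a pseudocount of 10 (Pcdhac1 lost), 22 with voom on the recovered reads, 45 when adjusted over the listed genes alone, 36 by the authors' false discovery rate, 1 without size factors, 0 without the trended prior (44 at an unadjusted p under 0.05) and 0 at an adjusted p under 0.01 (46 at an unadjusted p under 0.05). Over all 1593 listed genes 495 were called in the main fit. This number was 604 with a pseudocount of 10, 661 with voom, 1536 when adjusted over the listed genes alone and 1119 by the authors' false discovery rate. It was 1 without the trended prior, 64 without size factors and 2 at an adjusted p under 0.01. The cause of these shifts was not tested. At an unadjusted limma p under 0.05 there were 1487 of the 1593 listed genes without the trended prior and 1541 in the main fit. All had been listed for a p of at most 0.0498 in the authors' test, so such unadjusted counts largely follow from the selection. Leaving out a library gave 0 to 3 of the 48 genes and 33 to 61 of all genes, in fits with 1 residual degree of freedom that give the single remaining sample the spread of the other group. With the replicate block 36 of the 48 and 1176 of all genes were called. The labels do not say whether the replicate numbers pair libraries across the groups. The differences between replicates 1 and 2 in PD and in PC had a correlation of -5.8e-05 over 1593 genes. These genes were selected for a difference between the groups and many had few reads, so this value cannot decide whether libraries were paired. With a pseudocount of 0.1, 10 of the 48 were called, against 417 of all 1593 listed genes, and Cdh22, Col5a2, Krt13 and Krt79 were lost. With a mean of at least 10 normalized reads, 21 of 45 were called, against 585 of 1452 listed genes. That limit removed Cldn2 and Pcdhac1, so 12 of the 14 main calls were among the 21. All 14 calls were kept by voom, by the authors' rate and with the block. Few reads limit the 15 genes with under 10 reads in a library.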
